A study of Homo sapiens with 12 samples.

Results

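FAS and ACTA2, neighbouring genes on the long arm of chromosome 10, were followed on every array of a microarray experiment in RKO, an established human colorectal cancer cell line. Every probe set whose annotation names FAS alone or ACTA2 alone was taken, which gave 6 of the 22277 probe sets on the Affymetrix array, 4 for FAS and 2 for ACTA2, and 0 probe sets named either gene together with another. Of the 22277, 62 control probe sets were left out and 22215 were tested. Cells were treated with thymoquinone (TQ) at 20 µM, with 5-fluorouracil (5-FU) at 10 µg/mL (76.8 µM) or with both at these doses (TQ+5-FU), and control cells received neither drug. The labels call the controls untreated, whereas the study's methods give them the solvent DMSO. Each of the 4 groups had 3 arrays, and all 12 arrays carried RNA of the same line. The labels do not say whether the replicates were separate cultures, so p-values measure the spread between arrays. The values are log2 signals after RMA (robust multi-array average, which corrects background, equalises the arrays and summarises the probes of a set), so a difference of 1 is a 2-fold change.

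FAS (CD95) is a death receptor of the cell surface. Binding of FAS ligand makes it recruit the adaptor FADD and procaspase 8, which starts the extrinsic pathway of apoptosis, and the gene is a known transcriptional target of p53. ACTA2 encodes alpha smooth muscle actin, a filament protein of contractile cells and myofibroblasts whose transcription in muscle depends on serum response factor (SRF) bound to CArG boxes, and it has also been described as responsive to p53. 5-FU is a pyrimidine analogue that disturbs thymidylate and RNA synthesis.

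FAS was chosen for its differences from control and ACTA2 for its rise with 5-FU, both with the array values known. FAS in every comparison, and ACTA2 wherever the 5-FU arrays enter, are therefore given as a description without a test. Tests are given for ACTA2 in TQ and in TQ+5-FU against control and in TQ+5-FU against TQ. Those against control reuse the control arrays by which ACTA2 was chosen. The TQ+5-FU arrays received the drug whose effect chose it, and the fit takes its spread from the 5-FU arrays as well. None of these p-values, that of TQ+5-FU against TQ included, is therefore independent of the choice.

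In RefSeq on GRCh38.p14, FAS lies on the plus strand at chr10:88964050-89017059 and ACTA2 on the minus strand at chr10:88935074-88991337, so that the gene spans share 27288 bases. RefSeq promoter windows run from 250 bases before to 50 after a start site, 300 bases in all, and 3 windows were listed for FAS and 2 for ACTA2. The FAS start sites at positions 88990798 and 88990914 lie inside the ACTA2 span, and their windows share no base with either ACTA2 window. The most downstream FAS start site, at position 88991431, and the outer start site of ACTA2 at position 88991337 are 94 bases apart and point away from each other. The windows of these 2 starts have 193 bases in common, at chr10:88991288-88991480. The window of FAS at chr10:88991181-88991480 is printed because it holds these shared bases, in capitals. The inner window of ACTA2 at chr10:88952724-88953023 on the minus strand, 38564 bases from the outer start, is printed because the closest matches to a CArG box in the windows of ACTA2 lie there. Its capitals mark the stretches that differ from the CArG box by 1 letter. Both read 5′ to 3′ on the strand of their own gene.
FAS window: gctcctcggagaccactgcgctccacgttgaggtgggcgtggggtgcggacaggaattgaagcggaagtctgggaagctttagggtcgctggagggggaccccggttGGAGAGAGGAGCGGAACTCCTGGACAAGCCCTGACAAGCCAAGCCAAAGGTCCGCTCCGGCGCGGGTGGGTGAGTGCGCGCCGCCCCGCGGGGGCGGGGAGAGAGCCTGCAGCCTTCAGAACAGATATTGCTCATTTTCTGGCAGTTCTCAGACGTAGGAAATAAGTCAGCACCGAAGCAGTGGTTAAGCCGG
ACTA2 inner window: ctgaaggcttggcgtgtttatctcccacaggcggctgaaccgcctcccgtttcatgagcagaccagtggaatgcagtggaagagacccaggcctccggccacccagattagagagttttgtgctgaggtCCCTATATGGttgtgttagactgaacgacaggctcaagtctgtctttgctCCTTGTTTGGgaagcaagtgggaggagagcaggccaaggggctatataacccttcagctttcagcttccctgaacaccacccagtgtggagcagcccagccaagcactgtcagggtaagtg

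Motifs were searched on both strands of each window. A p53 half-site, GGACAAGCCC at chr10:88991309-88991318, starts 122 bases before the most downstream FAS start site, at 88991431, and lies in the shared stretch. ACTA2 reads it as GGGCTTGTCC from 19 bases after its own outer start. It lies downstream of the other FAS start sites, whose windows held no p53 half-site. The outer ACTA2 window holds another match, AAACAAGCCT, 219 bases before the start. At least 1 p53 half-site was found in 6.63% of 35116 windows in RefSeq. The GGGCGG box occurred at 2 places in the shared stretch and in 44.95% of all windows. An NF-kB site, GGGGGACCCC, starts 157 bases before the FAS start at 88991431, outside the shared bases. No other FAS window had such a site, which 11.3% of all windows had. No window of either gene held TATAAA (11.5% of all windows) or an exact CArG box (1.29%). The inner ACTA2 window had 2 stretches with 1 letter off the CArG box, CCCTATATGG and CCTTGTTTGG, starting 121 and 71 bases before the start site, and 17.9% of all windows had at least 1 such stretch. The search with 1 letter off was added after the exact one gave no match, and for the CArG box only, so variants of TATAAA were not searched. CANNTG, found in 68.7% of all windows, was present in the other 2 FAS windows and in the inner ACTA2 window. A match describes the letters only.

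2 arrays stood apart from the rest. The mean correlation with the other arrays of its group was 0.911 for 5-FU replicate 3, whose nearest array was TQ+5-FU replicate 2, against 0.952 and 0.957 for the other 5-FU arrays. In TQ+5-FU it was 0.978 for replicate 2, against 0.984 and 0.990, and it was at least 0.997 in the TQ and control groups. The poly-A spike controls averaged 9.47 in 5-FU replicate 3 and 8.94 in TQ+5-FU replicate 2, against 8.22 to 8.97 on the other arrays. In the same order the hybridisation controls averaged 10.85 and 10.55, against 10.1 to 10.57. The array medians were 6.339 and 6.437, against 6.509 to 6.565. The 3′ minus 5′ difference, a measure of RNA integrity, was 0.06 and 0.13 for GAPDH on these 2 arrays and 0.05 to 0.09 elsewhere. For ACTB it was 0.56 and 0.89 on these 2 arrays and 0.57 to 0.96 elsewhere. The means of all 4 marker lists, epithelial cells included, were highest on these arrays. The 7 epithelial markers averaged 7.0 in 5-FU replicate 3, 6.97 in TQ+5-FU replicate 2 and 6.45 to 6.77 elsewhere. The 9 fibroblast markers averaged 5.35 in 5-FU replicate 3, 5.07 in TQ+5-FU replicate 2 and 4.66 to 4.94 elsewhere, and the 5 measured leukocyte markers averaged 5.14, 4.87 and 4.52 to 4.75. The 7 smooth muscle markers averaged 7.53, 6.83 and 6.38 to 6.78. Of the epithelial markers, KRT18 (12.09 in control) and EPCAM (9.04) were bright and CDH1 (3.72), VIL1 (3.65) and KRT19 (3.60) were dim. Over the 12 arrays LUM of fibroblasts was at 2.28 to 2.69 and COL1A1 at 7.80 to 8.86, PTPRC of leukocytes at 3.55 to 4.24, and of the smooth muscle markers MYH11 was at 5.69 to 6.89, TAGLN at 7.87 to 10.61 and SMTN at 10.04 to 10.86. Results below are given with and without these 2 arrays.

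FAS was measured by 4 probe sets, which do not give 4 independent readings. In 215719_x_at and 216252_x_at the suffix x marks probes that can match further transcripts. In 204780_s_at, the brightest, the log2 signal was 8.96, 9.23 and 9.17 in TQ arrays, 11.34, 11.13 and 7.97 in 5-FU arrays and 10.81, 9.17 and 10.29 in TQ+5-FU arrays, against 8.0, 7.72 and 7.77 in control arrays. All TQ and TQ+5-FU arrays lay above all controls, whereas in the 5-FU group replicates 1 and 2 were the highest of the experiment and replicate 3 lay within the controls' range. The group means were 9.12 ± 0.14 in TQ, 10.15 ± 1.89 in 5-FU and 10.09 ± 0.84 in TQ+5-FU, against 7.83 ± 0.15 in control (SD, n = 3 each). The 5-FU mean without replicate 3 was 11.24 ± 0.15 (SD, n = 2).

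The other FAS probe sets had the same shape. 204781_s_at had 7.85, 8.16 and 8.19 in TQ, 10.58, 10.38 and 7.44 in 5-FU and 10.12, 8.35 and 9.37 in TQ+5-FU, against 7.39, 7.0 and 6.90 in control. 215719_x_at had 7.85, 8.30 and 8.27 in TQ, 10.52, 10.23 and 6.61 in 5-FU and 9.97, 7.85 and 9.36 in TQ+5-FU, against 6.93, 6.74 and 6.39 in control. 216252_x_at had 6.93, 7.28 and 7.40 in TQ, 9.56, 9.24 and 5.89 in 5-FU and 8.94, 6.77 and 8.45 in TQ+5-FU, against 6.03, 5.74 and 5.77 in control. In each of the 4, 5-FU replicate 3 was near the controls, TQ+5-FU replicate 2 was the lowest array of its group, and the TQ arrays did not overlap the controls. How many of all probe sets separate TQ from control in the same way was not counted. Over the 12 arrays the correlation between FAS probe sets was 0.98 to 1.00.

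**Figure D1:**
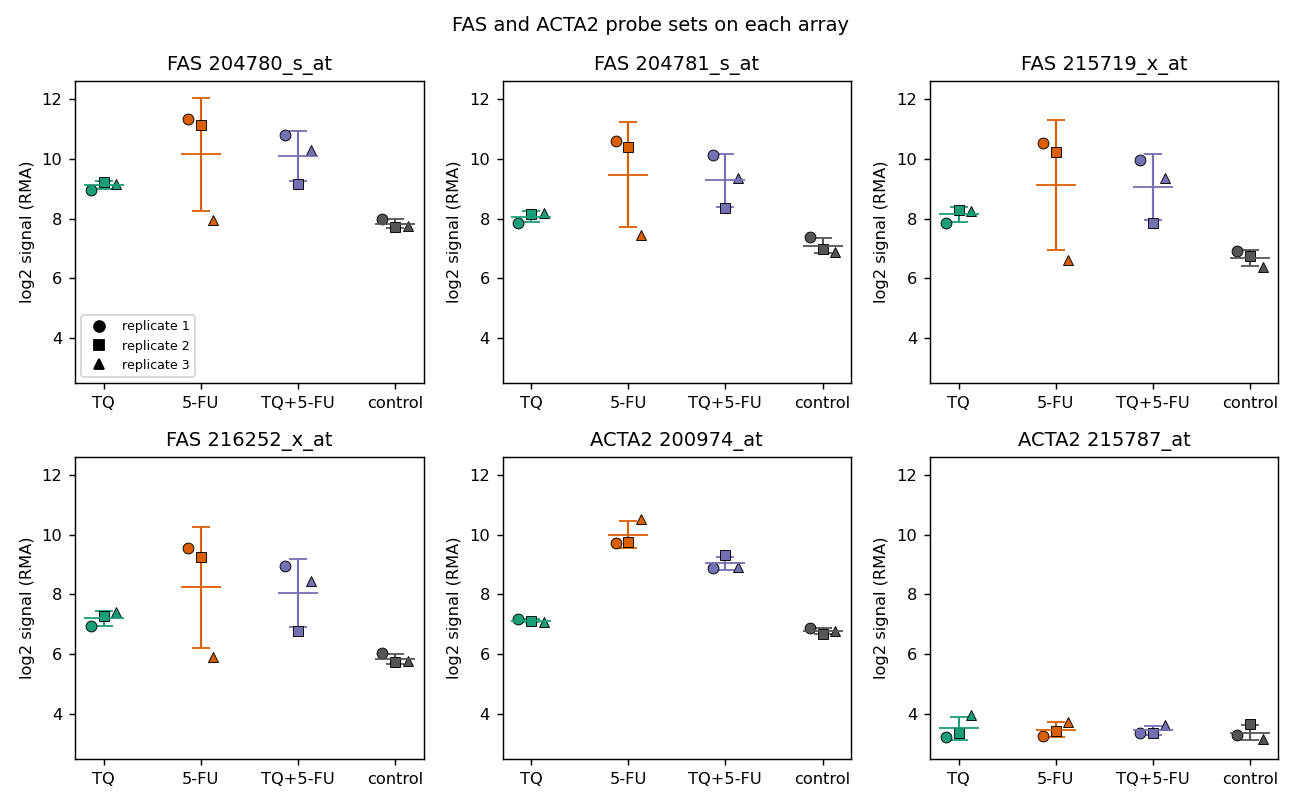
Log2 signal (RMA) of the 4 FAS and 2 ACTA2 probe sets on each of the 12 arrays, by group, with 1 symbol per array (shape gives the replicate) and the group mean with its SD (n = 3). In the FAS panels 5-FU replicate 3 (7.97 in 204780_s_at) sits at the controls while replicates 1 and 2 are highest, and in ACTA2 200974_at the same array (10.52) is the highest.

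The probe set 200974_at of ACTA2 gave 7.16, 7.12 and 7.08 in TQ arrays, 9.72, 9.75 and 10.52 in 5-FU arrays and 8.88, 9.30 and 8.92 in TQ+5-FU arrays, against 6.87, 6.66 and 6.78 in control arrays. The 4 groups followed each other without overlap, 5-FU highest, then TQ+5-FU, then TQ, then control. The means were 7.12 ± 0.04 in TQ, 10.0 ± 0.45 in 5-FU and 9.03 ± 0.23 in TQ+5-FU, against 6.77 ± 0.11 in control (SD, n = 3 each). Each gap between neighbouring group means (0.96, 1.92 and 0.35) was larger than the larger SD of its pair. The array with the lowest FAS of the 5-FU group was the one with its highest ACTA2.

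The other ACTA2 probe set, 215787_at, was dim, at the 9.62 percentile of mean signal over the tested probe sets against 69.0 for 200974_at. It had 3.24, 3.38 and 3.97 in TQ, 3.27, 3.42 and 3.75 in 5-FU and 3.37, 3.38 and 3.63 in TQ+5-FU, against 3.29, 3.67 and 3.17 in control. The groups overlapped throughout, and its largest difference in any comparison against control was 0.16, with a 95% interval of -0.31 to 0.63 (TQ). It therefore did not follow 200974_at, and the 2 probe sets of ACTA2 disagree.

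Against control, the mean log2 difference of the 4 FAS probe sets was 0.97 to 1.45 with TQ, 2.32 to 2.43 with 5-FU and 2.18 to 2.37 with TQ+5-FU when all arrays were used. Without the 2 arrays the TQ differences were the same, those with 5-FU were 3.39 to 3.69, a 10.46 to 12.88-fold change, and those with TQ+5-FU were 2.65 to 2.98. ACTA2 200974_at differed by 3.23 with 5-FU (9.36-fold), and by 2.97 without the 2 arrays. The 3 comparisons share the control arrays. Limma, which fits all 12 arrays with 1 mean per group, called 0 of the 6 probe sets in TQ, 1 in 5-FU and 1 in TQ+5-FU against control at an adjusted p under 0.05 (Benjamini-Hochberg over all tested probe sets), where 0.252%, 6.68% and 2.58% of all probe sets were called. In TQ against control limma had 2156 probe sets at an unadjusted p under 0.05, and 0 of the 6. In the fit without the 2 arrays 5 of 6 were called in each of these comparisons, where 30.6%, 26.1% and 21.4% of all probe sets were called. Since FAS and ACTA2 were chosen on these values, nothing is read from the counts for FAS, or for ACTA2 in 5-FU. The standard errors of FAS were 0.72 to 0.89 with all arrays, in a fit where the groups share 1 estimate of the spread, and 0.14 to 0.19 in TQ against control without the 2 arrays.

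ACTA2 200974_at was higher in TQ+5-FU than in control by 2.26 (standard error 0.20, 4.80-fold, limma adjusted p = 0.0003705, n = 3 arrays each), with no overlap between the groups, and without the 2 arrays by 2.13. With TQ alone its difference from control was 0.35, with a 95% interval of -0.11 to 0.80 (limma adjusted p = 0.6617 over all tested probe sets). In the fit without them the same difference had an adjusted p of 0.005865 by limma, in a fit that called 30.6% of all probe sets. All 3 TQ arrays were above all 3 control arrays. The share of all probe sets that separate in this way was not counted, so nothing is read from the separation.

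Between TQ+5-FU and 5-FU both genes are described only, since the 5-FU values chose them. ACTA2 200974_at was lower in each TQ+5-FU array than in each 5-FU array, by 0.96 in the mean and by 0.84 without the 2 arrays. FAS differed by -0.05, -0.19, -0.06 and -0.17 in 204780_s_at, 204781_s_at, 215719_x_at and 216252_x_at, and the TQ+5-FU arrays lay between the highest and lowest 5-FU arrays. Leaving out the 2 arrays gave -0.69, -0.74, -0.71 and -0.70. With all arrays limma called 0 of the 6 probe sets (1 at an unadjusted p under 0.05), where 0.738% of all probe sets were called, and without the 2 arrays 2 of 6, where 6.13% were, and nothing is read from these counts.

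Adding 5-FU to TQ raised ACTA2 200974_at by 1.92 (standard error 0.20, 3.77-fold, limma adjusted p = 0.002511), and by 1.78 without the 2 arrays. Since ACTA2 was chosen for its rise with 5-FU, this p-value is not independent of the choice. FAS, described only, had differences of 0.97, 1.22, 0.92 and 0.86 in the same order of probe sets. With the 2 arrays left out, 1 of which was the lowest of the TQ+5-FU group in FAS, they were 1.43, 1.68, 1.52 and 1.5. With all arrays 1 of the 6 probe sets was called, ACTA2 200974_at, against 0.968% of all probe sets, and without the 2 arrays 5 of 6, against 11.7%, with nothing read from the FAS calls.

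The interaction, the TQ+5-FU difference from TQ minus the 5-FU difference from control, contains the 5-FU rise by which the genes were chosen, so its values are a description. It was -1.35, -1.16, -1.51 and -1.53 for FAS and -1.31 for ACTA2 200974_at with all arrays. With 10 arrays it was -1.98, -1.71, -2.16 and -2.06 for FAS and -1.19 for ACTA2 200974_at. Limma called 0 of 6 probe sets with all arrays (1 at an unadjusted p under 0.05), where 0.126% of all were called, and 5 of 6 with 10 arrays, where 9.89% were, and nothing is read from these counts.

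**Figure D2:**
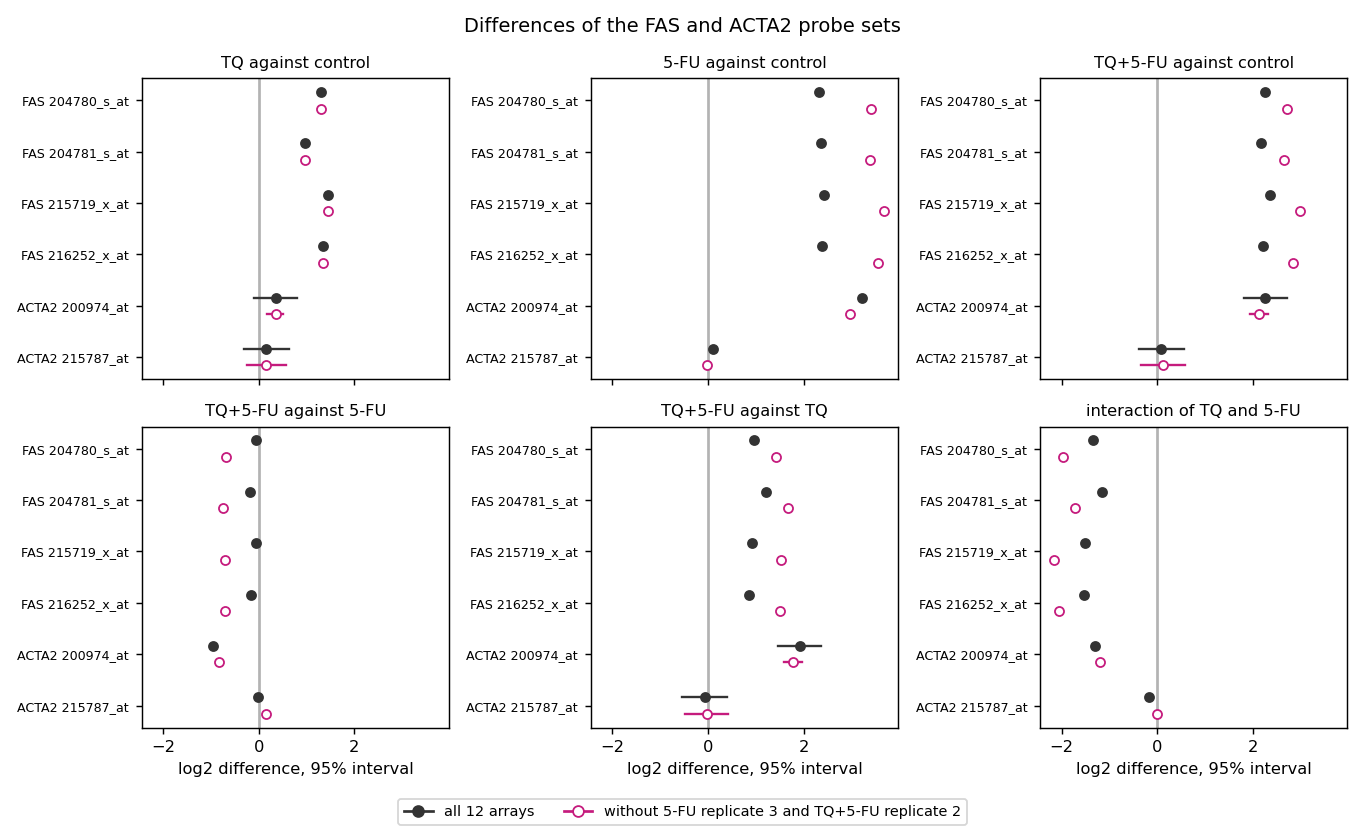
Log2 differences of the 6 probe sets in 6 panels, 1 per comparison, with all 12 arrays (filled) and without 5-FU replicate 3 and TQ+5-FU replicate 2 (open). Lines are 95% intervals and are drawn only for ACTA2 in the 3 comparisons without the 5-FU arrays; leaving out the 2 arrays moves FAS in TQ+5-FU against 5-FU to differences between -0.74 and -0.69.

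Set against each other array by array, the 2 genes parted on the arrays that stood apart. In 5-FU the median log2 difference of the 4 FAS probe sets from the control mean was 3.61, 3.35 and 0.09 in replicates 1, 2 and 3, while ACTA2 200974_at had 2.95, 2.98 and 3.74. In TQ+5-FU the FAS median was 3.06, 1.21 and 2.53, while ACTA2 had 2.11, 2.53 and 2.14. In TQ the FAS median was 1.11, 1.42 and 1.45, while ACTA2 had 0.39, 0.34 and 0.31. The array low in FAS was thus the array high in ACTA2 in both groups that received 5-FU, whereas with TQ alone all arrays had a clear FAS difference and a small ACTA2 difference. The correlation between ACTA2 200974_at and the FAS probe sets was 0.50 to 0.62 over 12 arrays and 0.94 to 0.97 over the 10 others. It is a description, since the arrays fall into treatment groups that both genes follow.

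**Figure D3:**
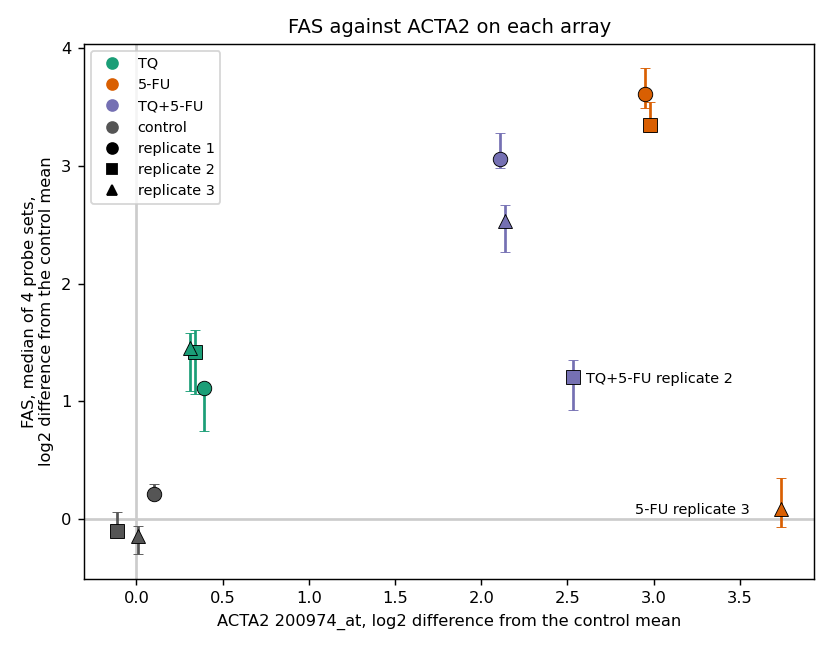
Log2 difference from the control mean of ACTA2 200974_at (horizontal) and of FAS, the median of 4 probe sets with the lowest and highest as bars (vertical), for each of the 12 arrays by group (colour) and replicate (shape). 5-FU replicate 3 lies at 0.09 for FAS and 3.74 for ACTA2, and TQ+5-FU replicate 2 at 1.21 and 2.53.

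The drop of FAS in 5-FU replicate 3 was large among all genes. Its signal there minus the mean of replicates 1 and 2 was -3.27, -3.04, -3.76 and -3.51 in the 4 probe sets, at the 1.15, 2.03, 0.252 and 0.594 percentiles of all tested probe sets. ACTA2 200974_at stood at 0.78, the 77.2 percentile. Of 12 probe sets at least 8-fold above control in the mean of 5-FU replicates 1 and 2, 5 were also at least 8-fold above control in replicate 3. A further 4 were within 2-fold of control there. These 4 were the FAS probe sets, which read 1 gene and are not independent. The selection of FAS named replicate 3 with the data known, so the drop is a description. Of 53 that were at least 4-fold above control, 16 were within 2-fold of control in replicate 3 and 29 remained at least 4-fold above. The part of the array controls and of the marker levels in this was not tested.

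Other targets of p53 were read from a list of 32 genes, 26 of them measured, each from its brightest probe set. Of the 26, 18 rose and 0 fell with 5-FU, where 7.29% of all genes were called (4.32% higher and 2.97% lower), and their median log2 difference was 1.34 against 0.09 over all genes. The largest named examples were GDF15, a stress cytokine, with 4.34 (standard error 0.18), TP53I3, an oxidoreductase, with 3.09, and DDB2, a sensor of ultraviolet damage, with 2.60 (limma adjusted p = 2.174e-06 for each). SUSD6, a membrane protein, rose by 1.81 (adjusted p = 4.816e-05 by limma) and CDKN1A, the cyclin-dependent kinase inhibitor p21, by 0.68 (adjusted p = 0.02461). In TQ+5-FU 11 rose and 0 fell, where 2.63% of genes were called (1.78% higher and 0.853% lower), with a median of 1.04 against 0.01. Against 5-FU, TQ+5-FU had 4 lower (GDF15 by 1.56, DDB2, TP53I3 and SUSD6) and 1 higher (GADD45A, a stress-response protein, by 0.62), where 0.802% of genes were called (0.435% higher and 0.368% lower). With TQ alone 0 of 26 were called by limma, with 6 at an unadjusted p under 0.05 and 0.267% of genes called, and their median was -0.03. FAS, with TQ differences of 0.97 to 1.45, lay above that median. It was chosen for its differences from control, so nothing is read from this. With 10 arrays 24 list members were higher with 5-FU, where 28.3% of genes were called, 22 were higher with TQ+5-FU, where 22.7% were, and 7 were higher and 4 lower with TQ, where 32.4% were.

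Both array patterns, that of FAS and that of ACTA2, were found among the p53 targets in 5-FU. Of 17 list members at least 2-fold above control in both replicates 1 and 2, 10 were at least 2-fold above control in replicate 3 and 7 were not. 7 of the 17 stood above both other arrays in replicate 3 and 10 stood below both, against 98 and 162 of the 262 genes in all that passed the same threshold, so the split was like that of all genes. GDF15 had 11.84, 11.90 and 12.40 in 5-FU arrays 1 to 3, DDB2 11.33, 11.30 and 11.56, and TP53I3 11.62, 11.65 and 11.98, so these were highest in replicate 3, as ACTA2 was. TIGAR, an enzyme of sugar phosphate metabolism, had 11.33, 11.26 and 8.73 in the 5-FU arrays, and PPM1D, the phosphatase that shuts off p53 signalling, had 11.19, 11.13 and 9.40, low in replicate 3, as FAS was. Of those 262 genes, 54.2% were under 2-fold in replicate 3. In TQ+5-FU, 11 of 14 list members at least 2-fold above control in replicates 1 and 3 were so in replicate 2 as well, against 77 of 121 over all genes.

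**Figure D4:**
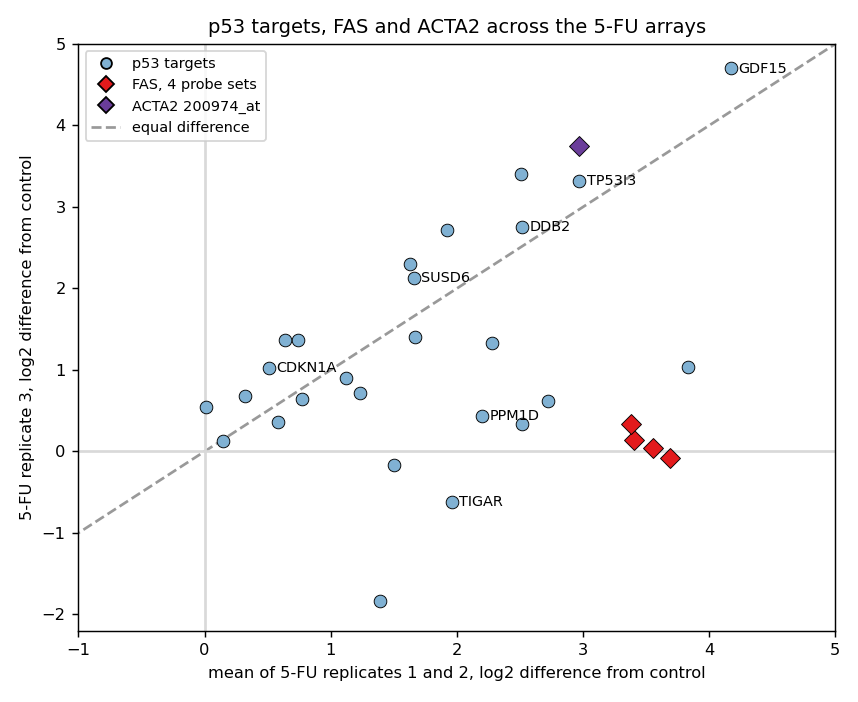
Log2 difference from the control mean in 5-FU replicate 3 (vertical) against the mean of 5-FU replicates 1 and 2 (horizontal) for 26 measured p53 targets (circles), the 4 FAS probe sets and ACTA2 200974_at (diamonds); the dashed line marks equal differences. GDF15 and ACTA2 lie above the line, and FAS lies near 0 on the vertical axis at 3.39 to 3.69 on the horizontal one.

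Of 18 genes of the Fas complex and its regulators, 14 were measured, and with 5-FU 1 was called higher and 0 lower, where 7.29% of all genes were called, a share like that of the list, with a median difference of 0.12 against 0.09 over all genes. It was CASP10, an initiator caspase, which had 7.81, 7.66 and 7.16 in 5-FU arrays, against 6.37, 6.43 and 6.61 in control arrays, and rose by 1.07 (limma adjusted p = 0.003144). CFLAR, the decoy that blocks caspase 8 at the receptor, differed by 0.47, CASP8 by -0.55 and FASLG, the ligand, by 0.38, and none of them passed. FASLG was dim on every array, at 3.71 to 4.78. In TQ and in TQ+5-FU against control 0 of 14 were called by limma, with 2 and 1 at an unadjusted p under 0.05. With 10 arrays the list had 3 higher and 1 lower in 5-FU against control, where 28.3% of genes were called.

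Of 4 measured actins other than ACTA2, 0 were called in any of the 6 comparisons by limma with all arrays, with 1 in all at an unadjusted p under 0.05, in 5-FU against control. ACTB, cytoplasmic beta actin, had 13.61, 13.63 and 13.80 in 5-FU arrays, against 13.90, 13.90 and 13.91 in control arrays. With 10 arrays ACTB was called in 5-FU against control, with -0.29 (limma adjusted p = 0.01205), where 28.3% of genes were called. ACTG2, ACTC1 and ACTA1, the muscle actins, were at 4.11 to 4.88, 5.64 to 6.21 and 4.10 to 5.12 over all 12 arrays. Of 14 smooth muscle contractile genes, 2 rose with 5-FU and 0 fell, where 4.32% of all genes rose and 2.97% fell, with a median of 0.39 against 0.09 over all genes. TAGLN, the actin-binding protein transgelin, had 9.73, 9.83 and 10.61 in 5-FU arrays, against 8.04, 8.04 and 8.31 in control arrays, and rose by 1.93 (limma adjusted p = 0.001114). TPM2, a tropomyosin, rose by 0.94 (limma adjusted p = 0.003732). MYL9, the regulatory myosin light chain, differed by 0.95 and CNN1, calponin, by 0.49, and both missed the threshold.

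TAGLN was also lower in TQ+5-FU than in 5-FU, by 1.58 (limma adjusted p = 0.01827), with 8.22, 8.83 and 8.39 in TQ+5-FU arrays. The median difference of the contractile list from control was 0.08, 0.20 and 0.82 in 5-FU replicates 1, 2 and 3, and the same median in replicate 3 was 0.73 for the epithelial, 0.62 for the leukocyte and 0.57 for the fibroblast markers and 0.37 for the other actins. The part of this in the contractile values was not tested. With 10 arrays the list had 5 higher and 0 lower in 5-FU, with a median of 0.13 against -0.01, where 28.3% of genes were called. Of 11 measured targets of SRF and TGF-beta signalling, 4 rose and 1 fell with 5-FU, where 4.32% of all genes rose and 2.97% fell, and with 10 arrays 5 rose, SMAD7 among them, and 1 fell. CCN2, a matricellular growth factor, rose by 1.57, the transcription factor genes FOS and JUNB by 1.96 and 1.53 and ID1, an inhibitor of differentiation, by 1.23, while CCN1 fell by 0.42. SRF itself differed by -0.03. With TQ alone 1 rose, FOS by 1.97 (limma adjusted p = 0.007776), where 0.267% of genes were called. With 10 arrays 4 were higher with TQ (FOS, ID1, CCN2 and SKIL) and 2 lower (CCN1 and FHL2), where 32.4% of genes were called.

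RefSeq lists 54 other genes within 1 Mb of FAS, 20 of them protein coding, and 10 had a probe set of their own. With all arrays, limma called 0 of the 10 in each of the 6 comparisons, with at most 1 at an unadjusted p under 0.05 in any of them. The shares of all genes called in TQ+5-FU against TQ and in the interaction, not given above, were 1.15% and 0.167%. Their differences with 5-FU ran from -0.39 (IFIT5) to 0.48 (CH25H), with a median of 0.03 against 0.09 over all genes. STAMBPL1, the nearest measured gene, 40563 bases from FAS, had 5.31, 5.47 and 5.22 in 5-FU arrays, against 5.50, 5.70 and 5.56 in control arrays. RNLS and LIPF lie on the same side of FAS, and CH25H, LIPA, IFIT2, IFIT3, IFIT1, IFIT5 and KIF20B on the other.

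4 of the neighbours, STAMBPL1 among them, were lower in 5-FU replicate 3 than in both other 5-FU arrays. STAMBPL1, with 5.31, 5.47 and 5.22, dropped far less than FAS. The share of all genes lower in that array was not counted, so nothing about the region is read from these 4. LIPA, lysosomal acid lipase, had 10.11, 10.05 and 8.09 in 5-FU arrays, against 9.80, 9.70 and 9.67 in control arrays. IFIT5, an interferon-induced RNA-binding protein, had 8.30, 8.12 and 5.51 in 5-FU arrays, against 8.02, 7.72 and 7.37 in control arrays. KIF20B, a kinesin, had 6.92, 6.88 and 6.10 in 5-FU arrays, against 7.10, 6.99 and 6.77 in control arrays. All 4 lay below every control array in replicate 3, which no FAS probe set did. Without the 2 arrays LIPA alone of the 10 was called higher with 5-FU, by 0.36 (limma adjusted p = 0.02163), where 28.3% of genes were called. LIPA, IFIT5 and KIF20B were called higher with TQ in that fit, by 0.31, 1.12 and 0.72, where 32.4% of genes were called.

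**Figure D5:**
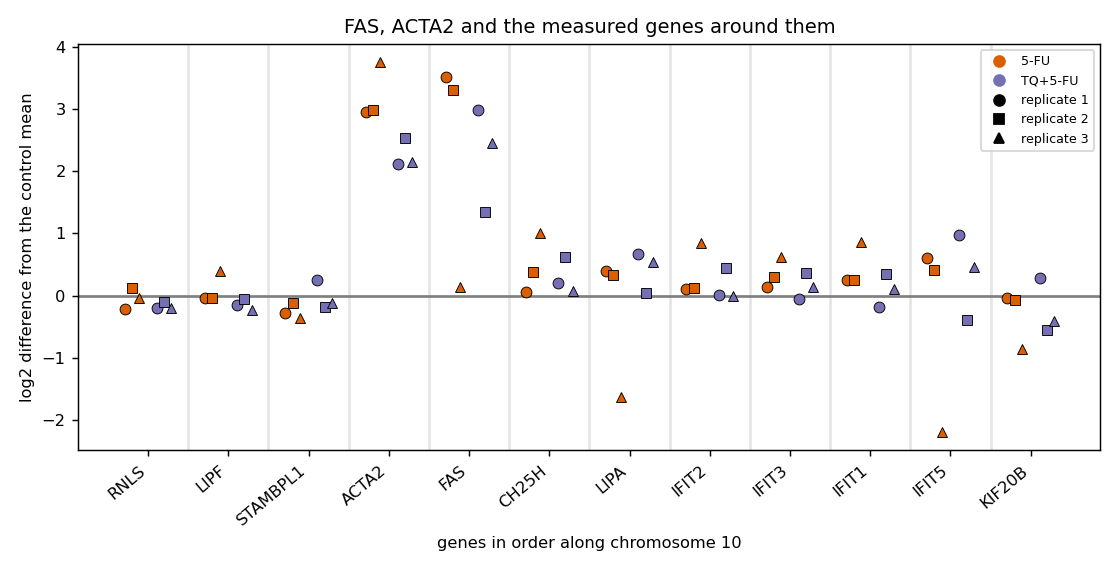
Log2 difference from the control mean of FAS (204780_s_at), ACTA2 (200974_at) and the 10 measured genes within 1 Mb, in their order along the chromosome, for each 5-FU and TQ+5-FU array (shape gives the replicate). FAS and ACTA2 stand up to 3.74 above control, while CH25H, at most 1.01, is the highest of the others.

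The 5 genes most like FAS 204780_s_at over the 12 arrays were STAMBP, a deubiquitinase (Pearson r = 0.991), CREM, a cAMP-responsive transcription factor (0.986), ANXA4, a calcium-binding annexin (0.983), ANKRA2 (0.977) and RIT1, a small GTPase (0.974). ANKRA2 had 8.20, 8.58 and 8.38 in TQ, 10.32, 10.08 and 8.10 in 5-FU and 9.58, 8.54 and 9.30 in TQ+5-FU, against 7.92, 7.88 and 7.72 in control. ACTA2 200974_at came at rank 907. The 5 genes most like ACTA2 200974_at were TFAP2C, a transcription factor (0.995), IP6K2, an inositol phosphate kinase (0.993), RNF19B, a ubiquitin ligase (0.992), EPAS1, hypoxia-inducible factor 2 alpha (0.988) and TUBA1A, an alpha tubulin (0.988), and FAS came at rank 3181. RNF19B had 8.84, 8.78 and 8.79 in TQ, 11.06, 11.12 and 11.53 in 5-FU and 10.13, 10.42 and 10.24 in TQ+5-FU, against 8.63, 8.74 and 8.86 in control. In the genes most like FAS 5-FU replicate 3 was near control, and in those most like ACTA2 it stood above the other 5-FU arrays. The likeness was not confined to that array. With it and TQ+5-FU replicate 2 left out, CREM (0.997), ANXA4 (0.995) and STAMBP (0.992) stayed among the 5 most like FAS. TFAP2C (0.994) stayed among the 5 most like ACTA2. Over the 10 other arrays the genes most like ACTA2 were TRIAP1, PPM1D, TFAP2C, RGL1 and GCH1, with FAS at rank 207, and those most like FAS were CREM, MOSPD1, TIGAR, ANXA4 and STAMBP, with ACTA2 at rank 129.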

How the data were processed

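RNA of RKO cells was hybridised to Affymetrix oligonucleotide arrays. The authors deposited log2 values after RMA, made with GeneSpring GX per the methods and with Affymetrix Expression Console per the submitters' processing notes. Probe sets took their genes from GEO's platform annotation, updated to current symbols: 19064 of 22215 name 1 gene, 1043 several and 2108 none, for 11963 genes. Array medians were 6.34 to 6.57, and 3 arrays per group limit the precision. Group means were fitted with limma 3.58.1 in R 4.3.3 over 12 arrays, with eBayes and Benjamini-Hochberg adjustment (threshold 0.05), and the script was tested on simulated data. Genes outside FAS and ACTA2 were read from their brightest probe set. Named were FAS and ACTA2, up to 4 list members with the smallest adjusted p in 5-FU against control plus the list's first gene, the measured genes within 1 Mb, and the 5 genes most correlated with each; CCN1, GADD45A, SMAD7, SKIL, FHL2, TIGAR, PPM1D and the genes most alike over 10 arrays were named after their values were seen. Alternatives were the fit without 5-FU replicate 3 and TQ+5-FU replicate 2, median centring, quantile normalization, a filter that drops the dimmest 30% of probe sets, the groups compared only, the methods' t-test and ANOVA, a replicate block and each array left out. The members and lists were chosen with earlier results of these data known. Promoter windows came from RefSeq (GRCh38.p14).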

Additional observations from a re-analysis of the deposited data

How the results depend on the processing

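Of the alternative counts of called FAS and ACTA2 probe sets, 107 stayed within 1.5 times the count with all arrays and 16 did not. In TQ+5-FU against TQ the count was 0 with the methods' t-test, and against control with TQ it was 5 of 6 with that t-test and with the groups compared only, which also gave 3 in TQ+5-FU against control. The methods' ANOVA with Tukey's test gave 1 in TQ+5-FU against 5-FU. Limma called 0.252% of all probe sets in TQ against control with all arrays and 30.6% without the 2 arrays that stood apart. Such shares are not given for the t-test, the ANOVA, the groups compared only or single arrays left out. Whether the counts under those settings exceed the share of all probe sets was therefore not tested. Without 5-FU replicate 3 and TQ+5-FU replicate 2, which the selection of these genes named with the data known, 5 were called in every comparison except TQ+5-FU against 5-FU, which had 2. Leaving out 1 array at a time gave 0 to 1 in TQ against control, 1 to 5 in 5-FU and in TQ+5-FU against control, 0 to 1 in TQ+5-FU against 5-FU, 1 throughout in TQ+5-FU against TQ and 0 to 2 for the interaction, and, TQ+5-FU against TQ aside, each upper value came without 5-FU replicate 3, which decides those upper values. The FAS difference of TQ+5-FU from 5-FU changed sign without 5-FU replicate 1 (0.37 to 0.64), without 5-FU replicate 2 (0.26 to 0.49) and without TQ+5-FU replicate 2 (0.27 to 0.54). Over the arrays left out it ran from -1.14 to 0.54, -1.21 to 0.37, -1.32 to 0.64 and -1.34 to 0.49 in 204780_s_at, 204781_s_at, 215719_x_at and 216252_x_at, lowest without 5-FU replicate 3. The dim ACTA2 probe set 215787_at changed sign in 5-FU against control (-0.03 without the 2 arrays and without 5-FU replicate 3), in TQ+5-FU against 5-FU (0.16 without the 2 arrays, 0.06 after quantile normalization and 0.02 to 0.12 when 5-FU replicate 3, TQ+5-FU replicate 1 or TQ+5-FU replicate 2 was left out), in TQ+5-FU against control (-0.02 without control replicate 3), and without TQ replicate 3 in TQ against control (-0.06), TQ+5-FU against TQ (0.15) and the interaction (0.04). Over the arrays left out its difference ran from -0.06 to 0.30 in TQ, -0.03 to 0.25 in 5-FU and -0.02 to 0.23 in TQ+5-FU against control, from -0.12 to 0.12 and -0.22 to 0.15 in TQ+5-FU against 5-FU and against TQ, and from -0.32 to 0.04 for the interaction. The cause was not tested. The replicate block changed no call of these probe sets (for example 1 in 5-FU against control). Deviations of same-numbered arrays had correlations of -0.84 to 0.86 with a median of -0.20 over 18 pairs. The median was 0.18 over 36 pairs with different numbers. The 2 arrays that stood apart carry different numbers and correlated at 0.88, so this check cannot decide whether the numbers pair the arrays.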
